A study of Homo sapiens with 34 samples.

Results

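The 3′ untranslated region (3′ UTR) of an mRNA runs from the stop codon to the poly(A) tail. It carries the polyadenylation signal, usually AATAAA, and often the sites at which RNA-binding proteins and microRNAs speed or slow decay. A very short 3′ UTR leaves little room for anything but that signal, and short 3′ UTRs are common among genes for ribosomal, mitochondrial and proteasome proteins. Replication-dependent histone mRNAs are an exception, as they end in a stem-loop and not in a poly(A) tail.

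Short 3′ UTRs of genes with a single annotated interval were followed in hTERT-RPE1, an hTERT-immortalised human retinal pigment epithelial line. Members were intervals of 300 bases or less that named 1 gene, whose symbol appeared in no other interval, and in which under 10% of reads over all libraries were multimapped. Of 71668 intervals, 2001 were short and the only one of their gene. Of these, 912 had no read in any library and 202 reached the multimapping limit, which left 887 members. A mean of 5 ReadsCPM (reads per 1000000 mapped reads) or more, the level used for decay, was reached by 364 of them, with 66 of 100 bases or less, 129 of over 100 to 200 and 169 of over 200 to 300. Another 269 had a mean under 0.1 ReadsCPM.

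The samples came from 2 lines carrying doxycycline-inducible constructs, one labelled knockdown and the other overexpression of CCND1, which encodes cyclin D1, and the study asked how cell size, large in the first and small in the second, affects mRNA turnover. In both lines doxycycline (0.5 µg/mL, present throughout) induced an shRNA against the CCND1 3′ UTR, and in the overexpression line also an allele that the shRNA spares. Both were pools of selected cells, and the genotype label names both constructs for every sample, so the line was taken from the titles. From day 4 of induction cells were pulsed for 24 h with 10 µM 4-thiouridine (s4U), a uridine analogue read as C after alkylation, and then chased in 1 mM uridine for up to 1440 min, while unlabelled controls received 10 µM uridine in place of s4U. There were 34 libraries of mRNA 3′ ends, 17 per line (15 labelled and 2 unlabelled), which form 4 time courses, 2 per line. Whether these were separate cultures is not given in the labels, so every p-value below measures the spread between courses, which may be technical.

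Libraries held 14712332 to 44480703 3′ UTR reads, of which members took 4.53% to 6.33%. CCND1 itself, counted over its own 3′ UTR, ran from 58.2 to 130 ReadsCPM in the knockdown libraries (median of 110) and from 24.8 to 56.9 in the overexpression libraries (median of 39.4), the reverse of the labels. Both lines induce the shRNA, and the added allele may lack the counted 3′ UTR and then gives no reads there, so these counts check neither label. The study's protein measurements of cyclin D1 were not used here, and "knockdown" and "overexpression" below mean libraries so labelled. Over the members at 5 ReadsCPM or more, 3 libraries stood apart: their correlation with the rest of their line was 0.898 (unlabelled, knockdown course 1), 0.917 (unlabelled, overexpression course 1) and 0.856 (720 min, overexpression course 1), against 0.966 to 0.994 in the other 31. Of 12 markers of retinal pigment epithelium only MITF (39.7 ReadsCPM) and OTX2 (1.52) reached 1 ReadsCPM, with RPE65 at 0.0231 and TTR at 0. Keratins KRT8 (270) and KRT18 (299) were present, EPCAM (0.0345) and CDH1 (0.0156) were near 0, and the mesenchymal VIM stood at 5371 ReadsCPM.

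The sequence of each interval was read from hg38, and its number of T bases equalled the deposited one in all 887 members. A stop codon lay directly before the first base in 100% of the 364 members at 5 ReadsCPM or more. In their last 50 bases 232 (63.7%) held AATAAA, 60 (16.5%) only ATTAAA and 72 (19.8%) neither. In single intervals of over 300 to 1000 bases the shares were 62.9%, 17.6% and 19.6%, about the same as in the short 3′ UTRs. AATAAA was more frequent in longer intervals, with 65.6% at over 1000 to 3000 bases and 70.4% above 3000. Neither signal was found in 17.8% and 12.7% of these. Where a signal was found it began at a median of 25 bases before the end of the interval. The pentamer ATTTA, the core of AU-rich elements, stood in 29.4% of these members, against 60.4% at over 300 to 1000 bases, 88.8% at over 1000 to 3000 and 97.8% above 3000. Its mean density was alike, 2.11 per 1000 bases in the members and 2.10, 2.20 and 2.33 in the longer classes.

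The signals of 5 members with the shortest intervals among those at 5 ReadsCPM or more show how compact these ends are. Each is printed on the transcript's strand (hg38) with the AATAAA in capitals, and the interval's length is given with it. In the first and the second the signal begins before the interval and overlaps the stop codon, which was the case in 2 of 294 members with a signal.
IFI27L2 (18 bases, chr14:94127788-94127812, minus strand): aacatgaggAATAAAggtcacatgc
SURF2 (30 bases, chr9:133361128-133361153, plus strand): cagccaggttAATAAAagcacatgcc
RPS12 (22 bases, chr6:132817536-132817561, plus strand): gaaatgaagaAATAAAtctttggctc
C12orf10 (28 bases, chr12:53307143-53307168, plus strand): ctcctagtctAATAAAaccttccatc
MTIF3 (32 bases, chr13:27435655-27435680, minus strand): cagtaattttAATAAAgaaaagcatg

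Clustered histone genes supplied 8 members, and 7 of them lay between 0.0145 and 0.147 ReadsCPM. HIST1H4C, which encodes histone H4, was the exception at 91.5 ReadsCPM. The histone stem-loop, searched as a 6-base stem around a 4-base loop on the transcript's strand up to 40 bases past the interval, was found in all 8. It lay inside the interval in 6, reached 3 bases past it in HIST1H1E, and lay wholly past the end in HIST1H4C. Some inverted repeat of this form was held within the interval by 81 of the other 879 members (9.22%). The stems are in capitals in 3 of them, chosen as the abundant gene, the one cut by its interval and one that holds it.
HIST1H4C stem-loop (chr6:26104312-26104337, plus strand): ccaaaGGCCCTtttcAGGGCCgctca
HIST1H1E stem-loop (chr6:26157090-26157115, plus strand): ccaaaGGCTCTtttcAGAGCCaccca
HIST1H2AE stem-loop (chr6:26217412-26217437, plus strand): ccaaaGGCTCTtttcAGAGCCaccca
The last bases of the 51-base HIST1H4C interval held 18 A in 20, more than the 7 to 10 of the other 7 histone members. It is printed with runs of 5 or more A in capitals.
HIST1H4C interval end (chr6:26104289-26104310, plus strand): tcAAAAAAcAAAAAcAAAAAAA
These libraries are primed on A-rich sequence, and the part of that stretch in the reads of HIST1H4C was not tested.

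By GENCODE release 44, on the same build, 878 of the 887 members lie in an exon of a protein-coding gene on their strand. Among the members at 5 ReadsCPM or more with such an exon, 51 of 362 (14.1%) belonged to a gene with an annotated coding transcript ending over 50 bases beyond the interval, against 11.7%, 10.2% and 7.25% in the longer classes. For those genes the interval need not be the whole 3′ UTR in use.

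mRNAs with short 3′ UTRs lost label more slowly than those with longer ones, in both lines. The label is the T>C rate, conversions over covered T bases minus the rate of the unlabelled library of the course. At 360 min of chase the median member kept 63.3% ± 0.211 (SD, n = 2 courses) of its 0 min label in knockdown libraries, and 55.3% ± 2.92 under overexpression. Single intervals of over 300 to 1000 bases kept 44.1% ± 2.40 and 37.7% ± 4.79, and those above 3000 bases 32.4% ± 3.91 and 23.7% ± 3.52. The members' value lay above that of each longer class in all 4 courses. At 720 min members had 19.8% ± 2.18 in knockdown libraries, and 7.97% ± 8.56 in overexpression libraries, whose course 1 library at that time is one of those that stood apart. By 1440 min 2.93% ± 1.28 and 1.32% ± 0.569 remained.

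**Figure D1:**
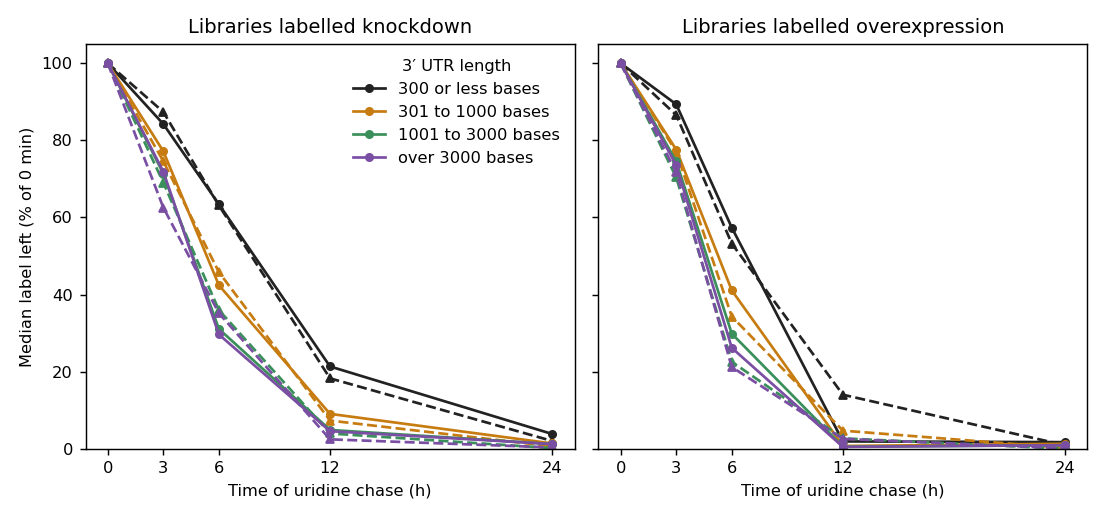
Median label left, in percent of 0 min, against hours of uridine chase for single-interval genes at 5 ReadsCPM or more, by 3′ UTR length (colours), in the libraries labelled knockdown (left) and overexpression (right). Circles and solid lines are course 1, triangles and dashed lines course 2, and the black lines of the members lie above the others at 3 and 6 h in each panel.

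A half-life, from a fit of an exponential to the label left, was obtained in all 4 courses for 120 of the 364 members (33.0%). The fit was kept (R2 of at least 0.6) in 49.2% to 70.6% of them per course, and in 59.6% to 78.0% of the genes with intervals of over 300 to 1000 bases. Short intervals offer fewer T bases to each read. In the median gene, covered T bases per read were 20.2 in the members and 12.2 in those of 100 bases or less, against 25.8 at over 300 to 1000 bases. The median number of conversions at 0 min was 279, 128 and 332 in the same order. Members of 100 bases or less were therefore the least well measured, with 9 of 66 fitted throughout.

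The median half-life of the 120 members was 7.33 h ± 0.314 (SD, n = 2 courses) with knockdown, against 6.48 h ± 0.0231 with overexpression. In the same order it was 5.17 h ± 0.0585 and 4.75 h ± 0.154 in the 383 genes with over 300 to 1000 bases, 4.65 h ± 0.315 and 4.20 h ± 0.356 in the 533 genes with over 1000 to 3000, and 4.59 h ± 0.142 and 4.18 h ± 0.388 in the 322 genes above 3000. The members' median exceeded that of the class of over 300 to 1000 bases by a factor of 1.34 to 1.47 in the 4 courses. Against genes with several intervals the factor was 1.28 to 1.46. With 4 courses an exact two-sided permutation of signs cannot go below p = 0.125, which each of the 4 comparisons with another class gave. Within the members the medians were 9.73 h ± 0.744 and 7.40 h ± 0.394 at 100 bases or less (9 genes), 7.79 h ± 0.218 and 6.43 h ± 0.421 at over 100 to 200 bases and 6.84 h ± 0.298 and 6.13 h ± 0.521 at over 200 to 300. No such order was seen without the genes of the ribosomal, oxidative phosphorylation and proteasome lists, where the medians over all courses were 6.42, 6.45 and 6.62 h. Over every fit kept in a course, the knockdown medians rose with length instead (5.56, 6.29 and 6.60 h), and the label left at 360 min followed no order (68.0%, 59.4% and 65.2% with knockdown). Across the 120 members, single genes varied far more than this, with a Spearman correlation of half-life with length of -0.11 (genes share libraries and are not independent). The mean factor against the class of over 300 to 1000 bases, 1.39 over the 4 courses, was 1.31 without the genes of the cytosolic and mitochondrial ribosomal, oxidative phosphorylation and proteasome lists, 1.35 without genes with an annotated end further on, and 1.38 without the 720 min library that stood apart.

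**Figure D2:**
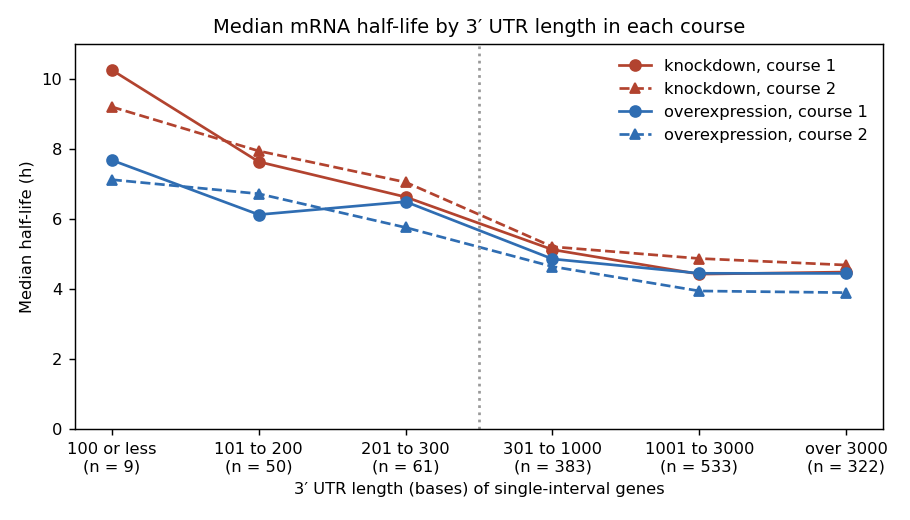
Median half-life (h) of single-interval genes fitted in each of the 4 courses, by 3′ UTR length in bases, with 1 point per course (red knockdown, blue overexpression, circles course 1, triangles course 2). The dotted line marks the 300-base limit of the members, whose 3 classes lie between 5.76 and 10.3 h while the longer classes lie between 3.90 and 5.21 h.

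Single members spanned a range of half-lives from 1.61 to 35.5 h (mean of 4 courses), with 25 of 120 over 12 h and 20 under 4 h. The longest and the shortest are described here. RPS12, a small ribosomal subunit protein, had 72.7 and 31.8 h in the knockdown courses, but 14.4 and 23.2 h in those of overexpression. GAPDH, the glycolytic dehydrogenase, had 38.1, 20.7, 18.5 and 18.9 h, and TMSB10, the actin-binding thymosin beta 10, had 42.1, 21.5, 15.5 and 17.6 h. RPL19 of the large ribosomal subunit (means of 27.7 and 19.5 h) and the lactate dehydrogenase subunit LDHB (29.2 and 13.1 h) followed. Values above 24 h exceed the chase and rest on label that had fallen little: RPS12 still held 75.7% and 55.6% of its label at 1440 min with knockdown, 32.7% and 35.7% with overexpression. No half-life here was corrected for cell growth. GAPDH has processed pseudogenes and 1.48% of its reads were multimapped, so its counts may hold reads of copies.

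At the other end, CWC22, a splicing factor that recruits the exon junction complex, had 2.27 and 1.07 h in the knockdown courses, then 0.402 and 2.71 h in those of overexpression. PIGC, an enzyme of GPI anchor synthesis, the zinc finger gene ZNF574, and DDIT3, the stress-induced transcription factor CHOP, had means of 2.10, 2.54 and 2.55 h. The 4 courses disagreed for some of these genes, as in PIGC with 0.247, 1.78, 3.98 and 2.41 h.

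By function, 5 oxidative phosphorylation members had a median of 13.0 h (8.60 to 17.5 h), among them ATP5F1B and ATP5MC2 of the ATP synthase, whose means were 15.4 and 15.0 h with knockdown, 10.5 and 10.8 h with overexpression. The 17 genes of that list with longer or several intervals had a median of 11.8 h. The 4 proteasome members PSMB1, PSMB4, PSMB7 and PSMC4 had a median of 11.7 h, and the other 26 proteasome genes 7.47 h. In most other lists with fitted members, the members lay below the rest. The medians were 5.32 h against 5.52 h in 2 mitochondrial ribosomal members and 4.95 h against 7.38 h in 2 tubulins. They were 7.42 h against 8.48 h in 3 S100 and annexin list members, and 4.56 h against 6.52 h in 1 translation factor. The RNA polymerase, chaperonin or prefoldin, tRNA synthetase, zinc finger and interferon response members also lay below the rest of their lists. The 1 member of the list of Sm and LSM RNA-binding proteins lay above, at 10.0 h against 6.35 h. So did the 1 lysosome member, at 9.56 h against 7.69 h. GMNN, at 3.53 h, lay under the 4.61 h of 27 other DNA replication genes. The 3 cytosolic ribosomal members (RPS12, RPL19 and RPL36AL) had 23.6 h against 18.6 h in 16 others, with RPL36AL low at 5.398 h. The 4 mitotic members had a median of 4.69 h, close to the 4.34 h of the other 40 mitotic genes: CKS2, a subunit of cyclin-dependent kinase complexes, was at 4.20 h, BUB1, the spindle checkpoint kinase, at 4.50 h, CDC20 at 4.87 h and PTTG1, securin, at 7.97 h. The 14 members of the cytosolic and mitochondrial ribosomal, oxidative phosphorylation and proteasome lists left aside, the other 106 had a median of 6.53 h.

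Members with longer half-lives were more abundant (Spearman correlation 0.70 across the 120 members) and had taken up less label at 0 min (-0.53). These are descriptions across genes that share libraries. Over all genes at 5 ReadsCPM or more, fitted or not, the classes had like abundance. The median was 30.1 ReadsCPM in the members and 27.4, 26.7 and 25.5 in the longer classes. The abundance of the fitted genes alone was not compared between classes, so a part of abundance in their half-lives was not tested. Members with AATAAA in the last 50 bases had a median half-life of 7.83 h (86 genes), those with only ATTAAA 5.83 h (21) and those with neither 4.72 h (13). Those with ATTTA had 6.45 h (39) and those without 7.13 h (81).

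No member differed in half-life between the lines at an adjusted p of 0.05 (limma, 120 tested), and the background was the same, 0.0% of 3317 genes in either direction. At an unadjusted p under 0.05, 14 members were longer in the knockdown line (11.7%, against 7.60% of all genes) and 0 were shorter (1.39% of all). The 14 became 8 of 117 without the 720 min library of overexpression course 1. All genes were not counted in that setting, so the 8 have no background beside them. The number also changed with each course left out, which leaves 1 course in a line. On the log2 scale the median ratio, knockdown to overexpression, was 0.23 in the members and 0.20 in all genes. The study reported a longer doubling time for its large cells than for its small ones, and a part of growth in this ratio was not tested. Both knockdown courses lay above both overexpression courses in 46 of 120 members (38.3%) and below in 5 (4.17%), where 33.2% and 9.35% of all genes did so. The members' median lay close to that of all genes. It was 0.11 without the 720 min library of overexpression course 1. As a single gene, BEX1, named for its brain expression, had 22.1 and 24.5 h with knockdown against 7.63 and 12.9 h with overexpression (log2 ratio 1.23, adjusted p = 0.504 in limma).

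**Figure D3:**
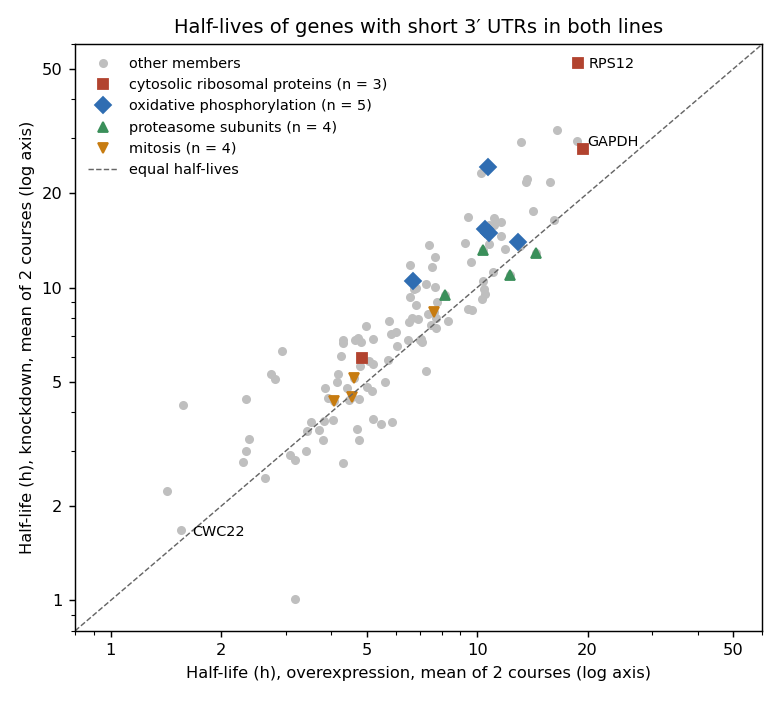
Half-life (h, log axes) of the 120 members in the knockdown line against the overexpression line, each the mean of 2 courses, with 4 gene lists in colour and the line of equal half-lives dashed. Most points lie above the line (82 of 120 by the log2 ratio) and oxidative phosphorylation members lie above 8 h on the mean of both axes.

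Label content at 0 min, the T>C rate after the pulse, could be tested for 342 members. None passed an adjusted p of 0.05 (limma), as in all 8277 genes tested (0.0% in either direction), while 9 were higher (2.63%, against 1.95% of all genes) and 16 lower (4.68%, against 3.61%) in the knockdown line at an unadjusted p under 0.05. The median rate of the members at 5 ReadsCPM or more was 0.828% ± 0.00288 of covered T with knockdown, against 0.911% ± 0.0232 with overexpression (SD, n = 2 courses). At over 300 to 1000 bases it was 0.866% ± 0.0201 and 0.929% ± 0.0191. At over 1000 to 3000 bases it was 0.866% ± 0.00510 and 0.915% ± 0.00771, above the members in both lines. Above 3000 bases it was 0.807% ± 0.0104 and 0.841% ± 0.00246, below the members in both lines. Members of 100 bases or less had 0.674% ± 0.00349 and 0.844% ± 0.0323. The median log2 difference was -0.13 in the members and -0.09 in all genes. Of all reads of the median member, 17.2% carried a conversion, and 20.8% in the class of over 300 to 1000 bases.

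Abundance differed between the lines in 108 of the 693 members with enough counts to be tested (edgeR, adjusted p under 0.05), the other 194 members having been too low. In the knockdown line 55 were higher (7.94%) and 53 lower (7.65%), against a background of 11.2% and 10.7% of 13165 genes. Both shares lay below the background, a difference that was not tested. Read depth differed as well: 364 of 887 members reached 5 ReadsCPM, against 787 of 1014 genes above 3000 bases. Of the calls, 33 higher and 49 lower members were among those 364. The shares were not compared at equal depth, so a part of depth in the low shares was not tested. By length the share of higher genes was 11.3%, 14.4% and 15.3% in the 3 longer classes, and that of lower genes 11.9%, 10.9% and 10.4%. The median log2 difference was 0.03 in the members and -0.01 in all genes. Of the 55 higher members 22 lay under 5 ReadsCPM, but only 4 of the 53 lower ones. Without knockdown course 2 the share of higher members was 4.12%, and without overexpression course 1 it was 4.56%. Leaving out the unlabelled libraries gave 10.1% higher and 10.2% lower. The shares of all genes in these alternative fits were not counted, so these values have no background beside them.

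**Figure D4:**
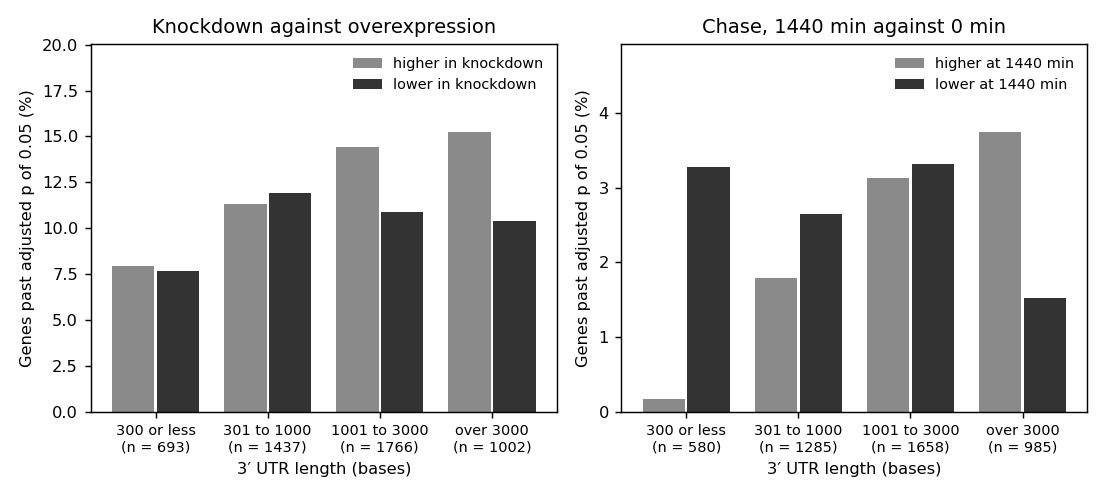
Percent of tested genes past an adjusted p of 0.05 (edgeR) by 3′ UTR length of single-interval genes, between the lines (left) and between 1440 and 0 min of the chase (right), with the number tested under each pair of bars. The members (300 or less) have the lowest bars between the lines, 7.94% and 7.65%, and over the chase 0.172% higher and 3.28% lower. Bars carry no error, since each is a single count of genes, and the classes were not matched for read depth.

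Of 6 tested members of the mitosis list 3 passed the test, all lower in the knockdown line, as were 62 of the other 79 mitotic genes. In bulk libraries, fewer cells in mitosis and less of these mRNAs per cell cannot be told apart. CDC20, the activator of the anaphase-promoting complex, measured 175 and 202 CPM (TMM-scaled, per 1000000 3′ UTR reads) in the knockdown courses, against 383 and 464 CPM in those of overexpression (log2 difference -1.17, SE 0.14, adjusted p = 0.000372). With 9.86% multimapped reads CDC20 was the member nearest to that limit. PTTG1, which holds back separase, measured 274 and 282 against 491 and 488 CPM (-0.82, adjusted p = 0.000947), BUB1 31.2 and 29.0 against 46.9 and 54.9 CPM (-0.76, adjusted p = 0.00412). In each of these the courses of the lines did not overlap, which is no further evidence, as the test used the same values. CKS2 (-0.36, adjusted p = 0.102) was among the mitotic members that did not pass. GMNN, geminin, the inhibitor of replication licensing and the only member of the DNA replication list, had 49.6 and 45.2 against 89.2 and 84.6 CPM (-0.88, adjusted p = 0.00112). KNTC1, a kinetochore protein of the spindle checkpoint, had 12.6 and 12.9 against 28.6 and 31.2 CPM (-1.23, adjusted p = 0.000372).

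The largest fall among members at 10 CPM or more was that of HIST1H4C, with 41.7 and 47.9 CPM in the knockdown courses, against 257 and 146 CPM in those of overexpression (log2 difference -2.17, SE 0.23, adjusted p = 0.000198). The other 5 tested histone members did not pass, and the median of all 6 was 1.07. Of 15 other clustered histone genes 8 were higher in the knockdown line and 1 lower (median 1.33), the opposite direction to HIST1H4C. HIST2H2AA3 and HIST2H2AA4 are near-identical copies, and their reads cannot be assigned with certainty.

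Beside HIST1H4C, KNTC1 and CDC20, the 10 largest falls at 10 CPM or more held 7 genes of varied function. IMPDH2, the rate-limiting enzyme of guanine nucleotide synthesis, had 24.4 and 24.5 against 49.7 and 42.6 CPM (-0.92), and NUDT1, which hydrolyses oxidised nucleotides, had 19.9 and 25.1 against 50.2 and 39.5 CPM. TOE1, a deadenylase of small nuclear RNA ends, fell by 1.12 on the log2 scale. HCFC1R1 (-1.31), PIR, an iron-binding nuclear protein (-1.17), CBR3, a carbonyl reductase (-0.99), and PPP1R35, a centriole protein (-0.97), completed them, and the 7 had adjusted p between 0.000248 and 0.00259. Of 11 mitochondrial ribosomal members 2 were lower, as were 3 of the other 60 genes of that list and 10.7% of all genes tested. The 2 members were MRPL39, with 34.5 and 28.6 against 57.0 and 44.5 CPM (-0.69), and MRPL1, with 42.2 and 33.1 against 55.4 and 52.4 CPM (-0.52). Of the cytosolic ribosomal members 6 of 7 did not pass, and RPL39L, a paralogue of RPL39, was lower (-0.92, adjusted p = 0.000872).

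Of 9 tested members of the list of S100 proteins, annexins, galectins and metallothioneins 4 were higher in the knockdown line and 0 lower, as were 9 and 0 of its other 25 genes. S100A11, an EF-hand protein, measured 577 and 494 CPM in the knockdown courses, against 268 and 310 CPM in those of overexpression (log2 difference 0.89, SE 0.13, adjusted p = 0.00129). ANXA1, annexin A1, measured 348 and 357 against 175 and 191 CPM (0.95, adjusted p = 0.000509), and S100A6 1163 and 1432 against 798 and 921 CPM (0.59, adjusted p = 0.0126). In all 3 the courses did not overlap, which again follows largely from passing the test on these values. S100A13 also passed (0.50, adjusted p = 0.0446). S100A10 and MT1E did not pass (0.22 and 0.28, adjusted p = 0.270 and 0.112), and MT1E reads may come in part from near-identical metallothionein genes.

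DYSF, which encodes dysferlin, a protein of membrane repair, showed the largest rise among members at 10 CPM or more, with 52.9 and 45.9 CPM against 15.3 and 16.1 CPM (log2 difference 1.65, SE 0.14, adjusted p = 8.35e-05). BEX1 stood at 1038 and 1021 against 409 and 437 CPM (1.28, adjusted p = 0.000107). ATP6V1F, a subunit of the vacuolar proton pump and 1 of 3 lysosome members, had a mean of 211 CPM with knockdown and 110.2 CPM with overexpression (0.94, adjusted p = 0.00184). SNRPN, an Sm protein from an imprinted locus, rose by 0.86 (adjusted p = 0.00233), while SNRPC of the U1 particle fell (-0.44, adjusted p = 0.0281) and SNRPD2 did not pass (-0.10). The other rises among the 10 largest were A1BG (1.04), C4orf48 (0.89), ZNF622 (0.88) and IFI27L2 (0.81), the last with the 18-base interval printed above and 53.3 and 70.1 against 33.4 and 37.1 CPM. KRT7, the only keratin member with enough reads, was at 8.02 and 12.3 against 4.23 and 5.43 CPM (1.07, adjusted p = 0.0125).

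**Figure D5:**
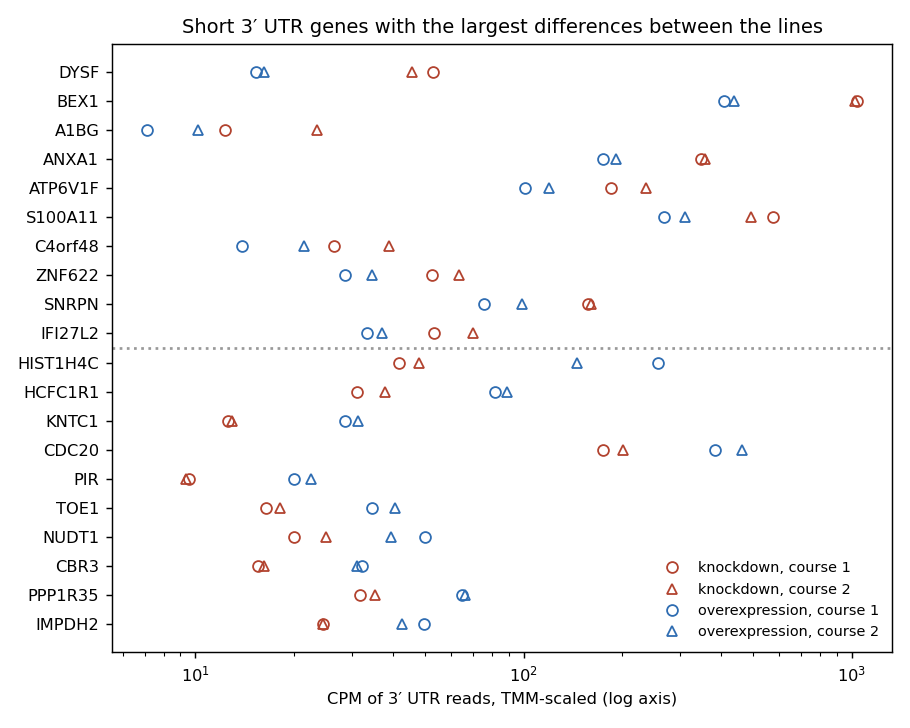
CPM (log axis, TMM-scaled, per 1000000 3′ UTR reads) of the 10 members with the largest rise (above the dotted line) and the 10 with the largest fall in the knockdown line among those at 10 CPM or more, with 1 point per course. In each of these 20 genes both red points (knockdown) lie on one side of both blue points (overexpression). The genes were chosen for large differences between these same values, so their separation is no further evidence.

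Tubulins split, with TUBB4B lower (681 and 832 against 1012 and 1183 CPM, log2 difference -0.54, adjusted p = 0.0204) and TUBB2A higher in the knockdown line (100.7 and 113 against 76.2 and 68.8 CPM, 0.56, adjusted p = 0.0123). None of the 16 oxidative phosphorylation members passed the test (median log2 difference 0.18), and 1 of 6 proteasome members did, PSMB9 of the immunoproteasome (-0.52, adjusted p = 0.0418). Of 7 interferon response members ISG15, a ubiquitin-like modifier, was higher (0.99, adjusted p = 0.0286) along with IFI27L2, and PSMB9 was lower. Of 20 zinc finger members 19 did not pass, ZNF622 being the exception. The mitochondrial import protein TIMM10 (-0.60) and the exon junction helicase EIF4A3 (-0.51) were lower, and none of 4 tRNA synthetase, 2 RNA polymerase and 2 chaperonin or prefoldin members passed. The 5 most abundant members were GAPDH, TMSB10, MT1E, FTL and RPS27A, a ribosomal protein made as a ubiquitin fusion, with adjusted p between 0.112 and 0.979. GAPDH measured 3733 and 4329 against 3890 and 4209 CPM (-0.01), with overlapping courses.

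Between 0 and 1440 min, over both lines, 19 of 580 tested members were lower (3.28%) and 1 was higher (0.172%), against a background of 2.27% lower and 2.36% higher among 11927 genes (edgeR, 4 libraries against 4). At an unadjusted p under 0.05, 87 members were lower (15.0%, against 8.97% of all genes) and 16 higher (2.76%, against 9.35%). The median log2 change was -0.10 in the members and 0.00 in all genes, and by length it was -0.04, 0.02 and 0.03 in the longer classes. A 1440 min sample was also a day longer in culture and in doxycycline than a 0 min one, which cannot be told apart from the chase. Without 1 course at a time 0.833% to 1.81% of members were lower, the least without overexpression course 2 (5 of 600), and 0 to 2 members were higher.

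ACTA2, smooth muscle actin, had the largest fall, from 204 to 102 and from 152 to 85.8 CPM in the knockdown courses, and from 199 to 102 and from 234.4 to 74.1 CPM in those of overexpression (log2 change -1.11, SE 0.14, adjusted p = 9.53e-06). SPOCD1 fell in every course as well, from 256 to 108, 218 to 112, 155 to 75.9 and 179 to 97.8 CPM (-1.03, adjusted p = 4.37e-06). DDIT3, among the members with the shortest half-lives, fell by 0.70 on the log2 scale. FTL, the ferritin light chain, and ALAS1, the first enzyme of heme synthesis, fell by 0.58 and 0.86. FTL has pseudogenes, with 2.18% of its reads multimapped. DOLK, an enzyme of dolichol phosphate synthesis (-0.88), BEX1 (-0.66), CBR3 (-0.64) and TUBB2A (-0.60) were also among the 10 largest, each lower at 1440 min in 4 of 4 courses. PSMB7 and PSMC4 of the proteasome (-0.45 and -0.40) and TMSB10 (-0.50) fell too. HOMER3, a scaffold protein, was the only member higher at 1440 min (0.46, adjusted p = 0.0230), in 4 of 4 courses. The change over the chase differed between the lines in 0 of 629 members and 2 of 12280 genes (0.0163%), with 39 members (6.2%) and 5.87% of all genes at an unadjusted p under 0.05.

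At the length limit, the members nearest inside were GMNN, INTS1, ZNF335 and PUS3 at 300 bases and THAP4 at 299, at 12.4 to 44.4 ReadsCPM. Those nearest outside were USP16 and NFIL3, 1 base over it, POLR2H and PPRC1 at 302 bases and SHARPIN at 303, at 5.69 to 56.2 ReadsCPM. THAP4 had a half-life of 5.31 h and POLR2H 5.35 h. The members closest to the multimapping limit were RPLP2 (7.31%), HSPE1 (9.29%) and CDC20 (9.86%), and RPL10A (12.9%) lay above it. Around 5 ReadsCPM, KRT7 (5.27) was just inside and ZNF408 (4.93) just outside.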

How the data were processed

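mRNA 3′ ends of 34 hTERT-RPE1 libraries had been read for 100 nt and were mapped and counted for the authors on hg38 by SLAMdunk (version 0.4.3). The deposited tables hold, per 3′ UTR interval, raw counts of reads, multimapped reads, covered T bases and conversions. They also hold a deposited CPM column (ReadsCPM, per 1000000 mapped reads) and a conversion rate given by the authors as a fraction. The members and gene lists were chosen with earlier results of these data known.

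Abundance was tested on one sum of counts per course, taken over the 6 kinds of sample that every course had, 2 courses against 2, and the chase on single libraries with line as covariate, by edgeR 4.0.16 (TMM, filterByExpr, quasi-likelihood). Label content (at least 1000 covered T) and log2 half-lives were tested with limma 3.58.1. Each fit used all genes, with Benjamini-Hochberg adjustment at 0.05. Half-lives came from exp(-Kt) fits to the background-subtracted rate over that at 0 min (at least 4 time points at 1 CPM, R2 of at least 0.6). DESeq2 1.42.0, RLE scaling, other filters and left-out courses were alternatives. The edgeR and limma fits of 2 courses against 2 and the exponential fit were tested on simulated data, and the other fits were not. The exponential fit was simulated at a single coverage. Coverage as low as that of the median member was not simulated. Reads carry no molecular identifiers. Sequences came from hg38 and ends from GENCODE release 44.

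Genes named were, per comparison, the 10 members past the threshold with the largest difference in each direction (at 10 CPM or more for abundance and chase), the 5 with the shortest and longest half-lives, the 5 most abundant, the 5 shortest intervals, the 5 nearest each side of the length limit and up to 4 members of highest ReadsCPM per list. The other genes named were chosen after their values were seen. Some genes that the rule names are not reported here.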

Additional observations from a re-analysis of the deposited data

How the results depend on the processing

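The direction of the longer half-life of the members against intervals of over 300 to 1000 bases held in every alternative tried. The factor was 1.39 as reported. These alternatives were chosen after seeing the data. It was 1.27 with an R2 of at least 0.8, 1.23 with a log-linear slope from 180 min, 1.46 for members of 200 bases or less, 1.21 for 500 bases or less against the rest up to 1000, 1.31 without the genes of 4 lists, and 1.31 to 1.41 without 1 course at a time. The median half-life of the members in the knockdown and in the overexpression line was 7.73 and 6.90 h with no R2 limit, 6.59 and 5.65 h with an R2 of at least 0.8, 8.52 and 7.72 h without 720 min in any course, 6.56 and 5.86 h with the time points of all courses only, 5.84 and 4.64 h with the log-linear slope, 7.74 and 6.78 h at a mean of 20 ReadsCPM or more, and 6.47 and 5.35 h for 500 bases or less. It was 7.84 h in the knockdown line for 200 bases or less, and in the overexpression line 6.78 h with no background subtracted. Without the 720 min library of overexpression course 1 it was 7.30 and 7.01 h. Without 1 course at a time it was 6.66 to 7.21 h and 6.27 to 6.49 h. The median log2 ratio of the lines was 0.11 with an R2 of at least 0.8, 0.11 without that 720 min library, 0.16 without 720 min in any course, 0.48 with the log-linear slope and 0.18 to 0.23 without 1 course at a time. The cause was not tested. Half-life calls between the lines stayed at 0 except for 1 member (0.990%) longer without 720 min in any course, and label calls stayed at 0 throughout. Higher abundance was called in 4.88% of members from the 0 min libraries alone and in 4.12% to 8.28% without 1 course at a time. Of 108 calls, 107 remained with DESeq2, 62 to 76 without 1 course, and 55 from the 0 min libraries alone, where 2 had the opposite sign and 4 were not tested. The replicate number as a replicate block raised the abundance calls to 16.7% higher and 16.02% lower and kept all 108 (correlation of same-numbered courses 0.27). The share of all genes called was not counted in any alternative fit. The members' shares in those fits therefore cannot be set against the background of the main fits. The labels do not tie equal numbers to a shared batch. Block fits left half-life and label calls at 0. Over the chase, members higher at 1440 min were 0.907% with DESeq2, 0.773% with no filter, 0.477% with each course as a replicate block, 0.0% at 200 bases or less, 0.670% at 500 or less and 0.0% to 0.333% without 1 course. Lower members were 5.26% with DESeq2 and 0.833% to 1.81% without 1 course, where 6 to 10 of 20 calls remained. Of the genes named by the rule that passed the threshold, none reversed direction in abundance or over the chase. Directions of the other named genes and of single half-lives were not compared in this way. The short classes offer the fewest T bases per read, and a part of this or of read depth in the results was not tested.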
